A study of Mus musculus with 14 samples.

Results

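The genes studied here write and erase DNA methylation. They are the 9 genes Dnmt1, Dnmt3a, Dnmt3b, Dnmt3l, Uhrf1, Tet1, Tet2, Tet3 and Tdg. They were chosen by name, and all 9 were found among the 22376 genes of the RNA-seq table. None of the pile-up sites of the degradome tables carried the name of one of the 9 genes in its annotation. The sites were therefore sought by their position inside the 9 genes on GRCm38, a step chosen after the data were seen. This found 5 distinct sites, with 4 of the 3919 sites in the Drosha table, 3 of the 4666 sites in the Dicer table, and 2 sites in both.

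Degradome sequencing (Degradome-seq) reads the 5′ ends of cut RNAs that keep a polyA tail and carry a 5′ monophosphate. Each value is the number of reads that start at a site, scaled by the mapped reads of the library (RPM). Drosha releases the stem-loop of a primary microRNA (miRNA), and Dicer then cuts the stem-loop into the mature miRNA. The comparisons ask which sites depend on either enzyme in mouse embryonic stem cells (ESCs). Control Droshafl/fl CreER ESCs received no treatment (2 libraries), and Drosha-deficient cells were the same line after 100 nM 4-hydroxytamoxifen for 72 h and a further 48 h without it (2 libraries). The control cells had no 4-hydroxytamoxifen, so the agent and the deletion cannot be told apart. In the Dicerfl/fl line, control cells were transduced with GFP (2 libraries) and Dicer-deficient cells with GFP-Cre (2 libraries), and cells with GFP were taken by sorting at day 3 and kept in culture until 2 days later. RNA-seq was made from 3 control and 3 Drosha-deficient libraries of the Drosha line. All ESCs were grown on mouse embryonic fibroblasts inactivated with mitomycin C, whose RNA may be present in the libraries. Nothing in the labels says that replicates came from separate cultures, so the p-values measure the spread between these libraries only, which may be technical.

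In mammals, Dnmt3a and Dnmt3b place methyl groups on unmethylated cytosines, with Dnmt3l as a cofactor that has no catalytic activity of its own. Dnmt1 copies methylation to the new strand after replication, and Uhrf1 recognises hemimethylated DNA and brings Dnmt1 to it. The Tet enzymes oxidise 5-methylcytosine, and the glycosylase Tdg removes the later oxidation products so that base excision repair can restore cytosine. Mouse ESCs are known for high Tet1 and for a methylation level that depends strongly on the culture medium.

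The sequences at the 4 exonic sites are given first, because all 4 lie on the strand opposite to the gene, so that the reads do not have the sequence of the gene's own mRNA. Each line holds 10 bases upstream of the site and the first 20 bases of the read, 5′ to 3′ on the strand of the read. The upstream bases are those of the spliced transcript, so they cross the exon edge where it is closer than 10 bases. Capitals mark the bases directly upstream that match the end of the RNA linker ligated to 5′ ends in the protocol, cacgacgcucuuccgaucu, with U read as T.
Dnmt1 exon 13: tcTCCGATCTgctctgaacgggaacggtgt
Dnmt1 exon 23: tcttcaATCTtcataggctgcccaagccag
Uhrf1 exon 2: tcctcaATCTttttcctcagctcctgcacc
Dnmt3b exon 6: tccgagacCTggtagccggaaactccacag

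The Dnmt1 exon 13 site matched the linker over 8 consecutive bases, the Dnmt1 exon 23 site and the Uhrf1 site over 4, and the Dnmt3b site over 2. A site was called linker-like where at least 3 bases directly upstream matched, a definition chosen after earlier results were known. The Dnmt1 sites reached this only along the spliced transcript. In the genome, both have an intron 2 bases upstream and a match of 2 bases, in chr9:20927099-20927128 and chr9:20919832-20919861 (plus strand). The Uhrf1 window, chr17:56305169-56305198 on the minus strand, is the same in the genome and in the transcript. The Dnmt3b site lies in the window chr2:153665355-153665384 (minus strand), 3 bases from the exon edge. Linker-like sequence was common to this kind of site. Of the 1377 sites antisense to a protein-coding exon in the Drosha table, 79.1% were linker-like in the genome or in a spliced transcript. Counted in the genome alone, 75.7% of these 1377 sites and 30.8% of all 3919 sites were linker-like.

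Each exonic site lay in coding sequence. The Dnmt1 sites start at chr9:20927109 and chr9:20919842, where Dnmt1 runs on the minus strand from 20907209 to 20959888. The Uhrf1 site starts at chr17:56305188, 1867 nt from the 5′ end of the gene, and the Dnmt3b site at chr2:153665374, 15924 nt from it. The first 30 bases of both Dnmt1 sites and of the Dnmt3b site occur once in GRCm38. Those of the Uhrf1 site occur at 2 places, the other being chr16:38512628-38512657, so reads of these loci could be split or exchanged. The fifth site, at chr10:62819850, lies in an intron of Tet1 on the strand of the gene. Its first 30 bases are entirely soft-masked repeat and occur 186 times in the genome, so its reads cannot be assigned to Tet1 with certainty. Dnmt3a, Dnmt3l, Tet2, Tet3 and Tdg held no site in either table, and 2 kb on either side of the 9 genes added none.

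The Drosha degradome libraries held 28700000 to 31000000 mapped reads, as computed from the RPM steps and rounded, and the Dicer libraries 29600000 to 34500000. These totals and all read numbers given here were computed here from the RPM, whose values came out as whole reads in every degradome library. A recovery test within that check failed in replicate 1 of the Drosha control, the Dicer control and the Dicer-deficient group. A floor of 3 reads equals 0.0968 to 0.105 RPM and 0.0868 to 0.101 RPM in these libraries. As a check of the labels, the RPM of the miRNA-annotated sites summed to 2669 and 2521 in Drosha control libraries and to 533 and 552 in Drosha-deficient libraries. In the Dicer line these sums were 2699 and 1984 in controls and 2477 and 2098 in Dicer-deficient libraries, and they overlapped.

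When Drosha was deleted, 3 of the 4 sites in the 9 genes were called decreased, namely both Dnmt1 sites and the Uhrf1 site, and the Dnmt3b site was lower but did not pass. By limma on log2(RPM + 0.1), the fall was 5.28-fold at Dnmt1 exon 13, 12.3-fold at Dnmt1 exon 23 and 4.51-fold at Uhrf1, and the last 2 sizes depend on the constant added. By the study's methods, a locus counted as a pile-up site where it was classified so in both control libraries, and whether this rule alone set which sites the tables hold is not given in the sources used here. Sites may thus have been chosen for high control values, so the counts of sites called decreased are a description, in these genes and in the whole table alike. A site was called where the false discovery rate (FDR, Benjamini-Hochberg over all 3919 sites) was under 0.05 and the log2 fold change passed 1.5 in size. By the same rule 37.6% of all sites in the table were called decreased and 9.57% increased, that is 1473 and 375 sites. These counts depend on the setting, with 871 decreased and 602 increased after each library was centred on its median site, 548 decreased with 1 RPM added, and 907 decreased without the Drosha control replicate 1. Among all sites antisense to a protein-coding exon, 83.1% were called decreased, with a median log2 fold change of −2.13, against −0.93 over all sites. The count of 3 of 4 was thus close to the share of sites of the same class. Within this class, 86.5% of the 1089 linker-like sites (median −2.17) and 70.1% of the 288 other sites (median −1.95) were called decreased.

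At the Dnmt1 exon 13 site, the strongest of the 5, control libraries held 65.7 and 39.1 RPM and Drosha-deficient libraries 8.97 and 10.1 RPM. The lowest control library stood above both deficient libraries, by more than the spread within the groups. The means were 52.4 ± 18.8 RPM (SD, n = 2) and 9.54 ± 0.81 RPM (SD, n = 2). The log2 fold change was −2.40 (SE 0.35, limma FDR 3.59e-05), or 5.28-fold lower. This site rests on 1885 and 1142 reads in controls and 278 and 291 reads in deficient libraries.

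The Dnmt1 exon 23 site was lower in level. It had 4.25 and 2.36 RPM in control libraries and 0.129 and 0.209 RPM in Drosha-deficient libraries, where the values stand for 4 and 6 reads. The deficient values were just above the floor of 3 reads, so the size of the fall depends on the constant added before the logarithm. The log2 fold change was −3.62 (SE 0.52, limma FDR 3.2e-05) with 0.1 RPM added and −1.85 (limma FDR 8.23e-05) with 1 RPM added. The order of the Dnmt1 sites turned with this constant, since exon 13 was at −2.30 with 1 RPM added (limma FDR 8.31e-05).

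At the Uhrf1 site, control libraries held 1.01 and 1.37 RPM and Drosha-deficient libraries 0.194 and 0.174 RPM. Again the groups did not overlap. The deficient libraries had 6 and 5 reads, against 29 and 40 in controls. The log2 fold change was −2.17 (SE 0.56, limma FDR 0.00313), or 4.51-fold lower. With 1 RPM added in place of 0.1, it was −0.88 and no longer passed the fold threshold.

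The Dnmt3b site did not pass. It held 1.46 and 1.64 RPM in control libraries and 0.839 and 0.695 RPM in Drosha-deficient libraries. The groups did not overlap, with 42 and 48 reads against 26 and 20. Its log2 fold change of −0.93 (SE 0.47, limma FDR 0.0911) was the same to 2 decimals as the median of all sites. It was a smaller fall than the median of its own class, antisense to a protein-coding exon (−2.13). Among sites of this class that were not linker-like, as here, the median was −1.95. All 4 sites in the Drosha table had both controls above both deficient libraries, as did 59.9% of all sites. Centring each library on its median site moved every log2 fold change up by 0.59, which left both Dnmt1 sites at −1.81 and −3.03, Uhrf1 at −1.58 and Dnmt3b at −0.34. The same 3 sites stayed called after this scaling.

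**Figure D1:**
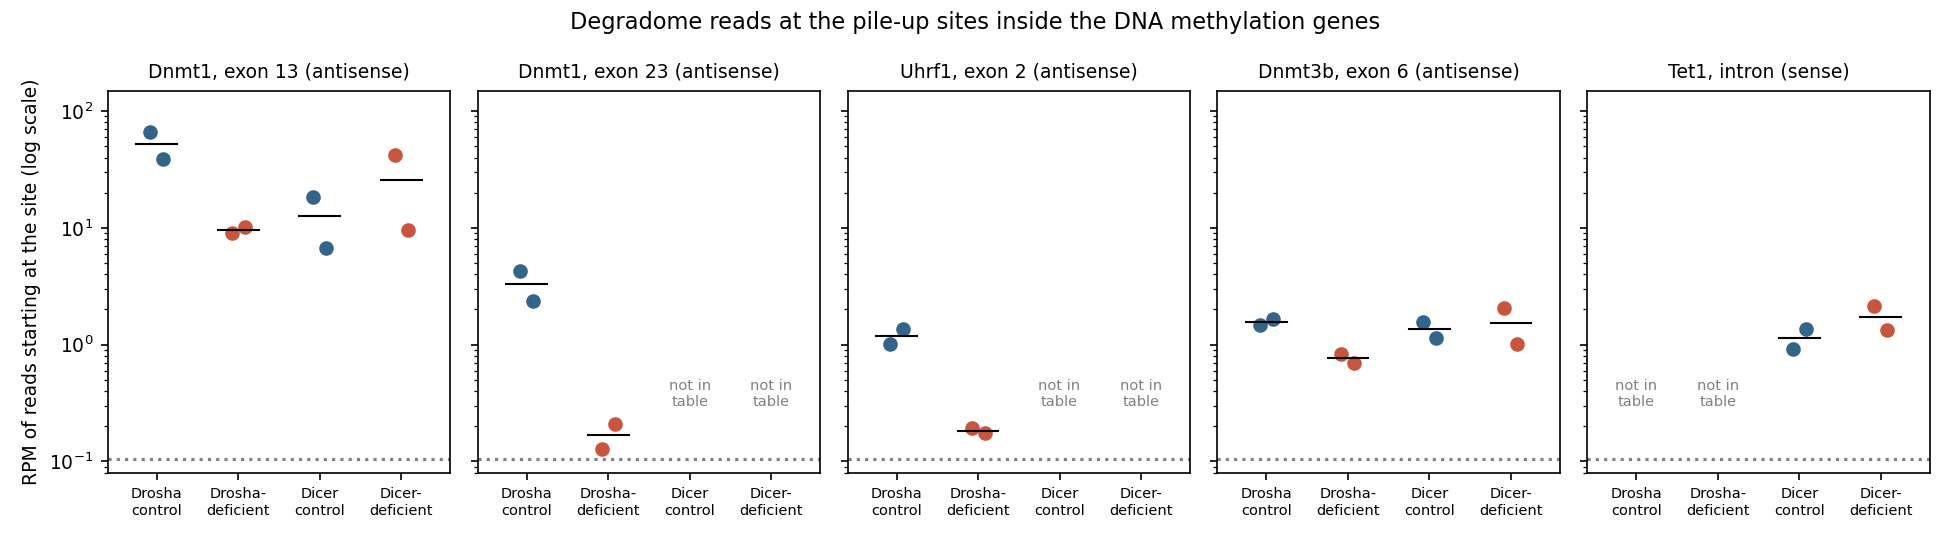
RPM of reads starting at each of the 5 sites (log scale) in the 8 degradome libraries, with a point per library, a line at the group mean and a dotted line at 0.105 RPM, the highest floor of 3 reads. Both Dnmt1 sites, Uhrf1 and Dnmt3b are separated between Drosha control and Drosha-deficient cells, and no site is separated between Dicer control and Dicer-deficient cells.

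When Dicer was deleted, none of the 3 sites in the 9 genes was called. Over all 4666 sites, limma also called 0 decreased (0%) and 0 increased, with 459 sites at an unadjusted p under 0.05. The Dnmt1 exon 13 site had 18.4 and 6.67 RPM in Dicer control libraries and 42.1 and 9.50 RPM in Dicer-deficient libraries. Library 1 of each group was the higher one, and the groups overlapped. The log2 fold change was 0.84 (SE 0.79, limma FDR 0.69), and it turned to −0.22 without the Dicer-deficient replicate 1.

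The Dnmt3b site had 1.56 and 1.14 RPM in Dicer controls and 2.06 and 1.01 RPM in Dicer-deficient libraries, and these overlapped. Its log2 fold change was 0.11 (SE 0.53, limma FDR 0.949). It was −0.37 without the Dicer-deficient replicate 1 and −0.10 without the Dicer control replicate 2. The Tet1 intron site, found in the Dicer table only, had 0.926 and 1.37 RPM in controls and 2.13 and 1.34 RPM in Dicer-deficient libraries, which overlapped. Its log2 fold change was 0.55 (SE 0.50, limma FDR 0.683). None of these 3 sites had both controls above both deficient libraries, against 27.4% of all sites. A p that misses the threshold does not show that the values were equal, and with 2 libraries a group the standard errors are wide.

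**Figure D2:**
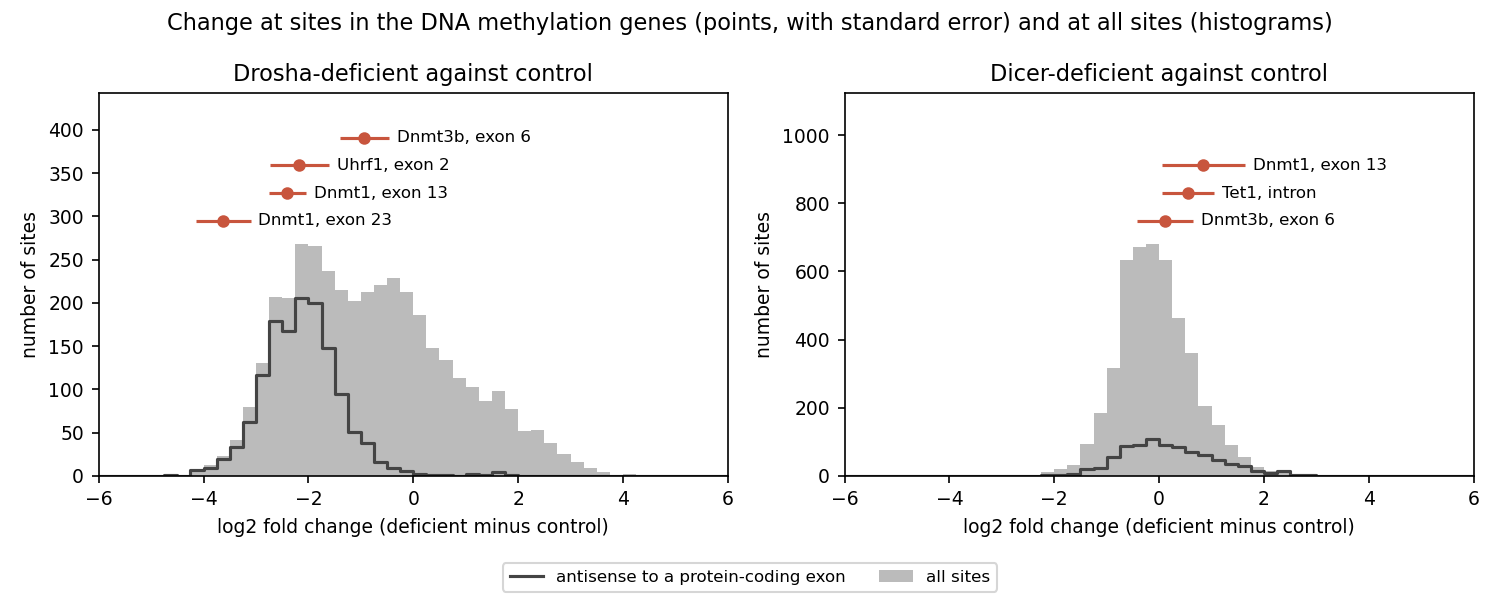
Log2 fold change (deficient minus control) at the sites in the DNA methylation genes, as points with the standard error, above the histogram of all sites (grey) and of sites antisense to a protein-coding exon (dark line); the vertical axis counts sites in the histograms only, and the height of a point has no meaning. In the Drosha comparison both Dnmt1 sites (−2.40 and −3.62) and Uhrf1 (−2.17) lie among the antisense sites, whose median is −2.13, and in the Dicer comparison the 3 points lie between 0.11 and 0.84.

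The change under loss of Drosha was then tested against the change under loss of Dicer at the 2 sites that both tables held, as an interaction in limma over 2595 shared sites. At the Dnmt1 exon 13 site the Drosha change was lower than the Dicer change by a log2 difference of −3.24 (SE 0.99, limma FDR 0.0726). At the Dnmt3b site the difference was −1.04 (SE 0.74, limma FDR 0.313). Neither passed at an FDR of 0.05, which 4.78% of the shared sites did. The Dnmt1 value depended on the setting. It passed with median-centred libraries (−2.73, limma FDR 0.0491) and with a block for the replicate number (−3.24, limma FDR 3.68e-11). No label says that same-numbered libraries were paired, so the block result is a description. When each library was left out in turn, the difference was −4.31 to −2.18.

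The RNA-seq table gives 1 level per gene, the authors' mean log2 CPM (counts scaled by library size) over all 6 libraries. It has no SD and allows no comparison of the groups. Whether the mRNA of the 9 genes changed with Drosha is not analysed here, since the only values for it are the authors' own fold changes. For levels between genes, the mean log2 CPM was reduced by log2 of the length in kb of the longest annotated transcript. On this scale of log2 CPM per kb, the median over 22353 genes with a length was 1.31.

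The maintenance genes stood highest. Uhrf1 was at 7.11 log2 CPM per kb and Dnmt1 at 6.84, above 97.9% and 97.3% of genes. Among the erasers, Tet1 was at 5.21, Tet2 at 3.51 and Tet3 at 0.55, the last below the median of all genes. Of the genes for new methylation, the cofactor Dnmt3l was at 4.44, Dnmt3a at 2.85 and Dnmt3b at 2.50. Tdg was at 1.88, and some of its reads may belong to its processed copy Tdg-ps2, listed at 3.03 log2 CPM per kb. The 9 genes had a median of 3.51, and 8 of them were above the median of all genes. No spread is known for these levels, so neighbours in this order cannot be told apart. With the median transcript length in place of the longest, the order changed, with Tet1 first at 9.79, Uhrf1 at 7.19, Dnmt1 at 7.01 and Dnmt3a at 6.41.

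Other genes of the same pathway were looked at as a list of 35. They had a median of 4.40 log2 CPM per kb, and 33 were above the median of all genes. Trim28, a corepressor that keeps imprints methylated, was the highest at 7.94, and Pcna, the replication clamp that Dnmt1 binds, was at 7.62. Usp7, a deubiquitinase that binds Dnmt1 and Uhrf1, was at 6.63, and Hells, a chromatin remodeller needed for methylation of repeats, was at 6.20. Zfp57, which binds methylated imprints, was at 5.91, and Dppa3, which limits Uhrf1 on chromatin, was at 5.64. Base excision repair was represented by Parp1 at 7.27, Apex1 at 6.64 and Xrcc1 at 6.03. All 10 pluripotency markers were above the median of all genes, from 4.15 (Lin28a) to 10.9 (Dppa5a). Of 10 fibroblast markers 7 were above it too, up to 8.21 (Sparc), with Col1a1 at 4.03 and Fn1 at 8.15. Below it were Col3a1 at 0.65, Dcn at −0.73 and Lum at −1.92. The part of the feeder cells in the levels of the 9 genes was not tested.

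**Figure D3:**
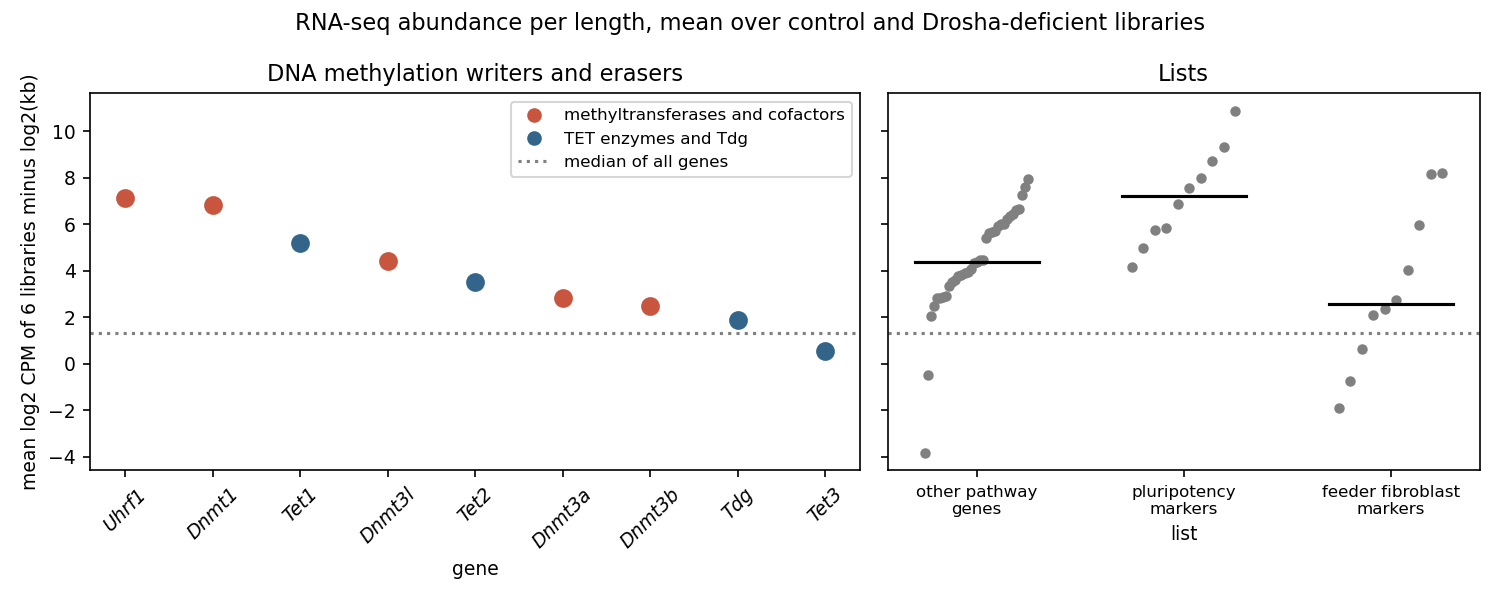
Mean log2 CPM over the 6 RNA-seq libraries minus log2 of the longest transcript in kb, for the 9 DNA methylation genes (left) and for each gene of 3 lists with the list median as a bar (right); the dotted line is the median of all genes, 1.31. Uhrf1 (7.11) and Dnmt1 (6.84) are the highest of the 9, and Tet3 (0.55) is the only one under the dotted line.

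Loss of Drosha also removes mature miRNAs, which bind the 3′ untranslated region (UTR) of an mRNA through their seed, bases 2 to 8. The 9 genes were therefore searched for matches to 3 seed families, chosen after the data were seen. They are the miR-290 to miR-295 family and the miR-17 family, which are abundant in ESCs, and miR-29, known to target DNA methylation genes in other cells. The mature sequences, from RefSeq on GRCm38.p6, are shown with the seed in capitals because the seed sets which letters were sought.
mmu-miR-291a-3p: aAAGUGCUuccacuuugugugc
mmu-miR-294-3p: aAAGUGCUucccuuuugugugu
mmu-miR-295-3p: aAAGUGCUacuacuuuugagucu
mmu-miR-17-5p: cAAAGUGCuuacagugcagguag
mmu-miR-106b-5p: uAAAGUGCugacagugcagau
mmu-miR-29c-3p: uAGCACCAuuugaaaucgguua

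The 6 miRNAs fall into 3 groups by shared seed. Pile-ups annotated to the stem-loops were looked up for 5 of these 6 miRNAs and found in both degradome tables. Mir17 was not looked up. Where a stem-loop had more than 1 site, the one with the highest mean RPM was kept. All 5 were called decreased with Drosha loss, with log2 fold changes from −2.45 (Mir294) to −2.03 (Mir106b), beside 37.6% of all sites. With Dicer loss 0 of 5 were called, as were 0 of all 4666 sites. At Mir29c, control libraries had 10.4 and 14.4 RPM and Drosha-deficient libraries 1.97 and 3.93 RPM, a log2 fold change of −2.10 (SE 0.40, limma FDR 0.000342). Mir106b, of the miR-17 family, had 9.55 and 6.57 RPM in controls and 1.35 and 2.54 RPM in deficient libraries, a log2 fold change of −2.03 (SE 0.41, limma FDR 0.000549). Mir29c was at 18.2 and 15.2 RPM in Dicer controls and 8.38 and 7.39 RPM in Dicer-deficient libraries, without overlap, but its log2 fold change of −1.07 (SE 0.32, limma FDR 0.469) was not called. These values are of cut precursors. Mature miRNAs were not measured here.

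The motifs sought on the transcript strand of the longest annotated 3′ UTR were AGCACTT (miR-290 to miR-295 family), GCACTTT (miR-17 family) and TGGTGCT (miR-29). The first and the second overlap where the first is followed by a T. Among 15191 genes with an annotated 3′ UTR, 16.8%, 13.7% and 14.9% held at least 1 match to the respective motif. The 9 genes had 28.4 kb of 3′ UTR in all, from 276 nt in Dnmt3l to 7965 nt in Tet1, so long UTRs had more room for a match.

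Matches to miR-29 were the most frequent, at 29 in 6 of the 9 genes. Tet3 held 8, Tet1 7, Tet2 5, Dnmt3a 5, Tdg 3 and Dnmt3b 1. Uhrf1, Dnmt1 and Dnmt3l held none, and these have the shortest of the 9 UTRs. Of the 9 genes, 5 had 3 or more matches, as did 0.507% of all genes. Since miR-29 was picked for its known targets among such genes, this contrast is a description only. It is also not matched for UTR length. Per length, the 9 genes held 1.02 matches per kb, and all genes 0.112 per kb. The miR-290 to miR-295 motif occurred 6 times in 3 genes (Tet3 3, Tet1 2, Tet2 1), at 0.211 per kb against 0.130 in all genes. The miR-17 motif also occurred 6 times, in 4 genes (Dnmt3a 2, Tet3 2, Tet1 1, Tet2 1), at 0.211 against 0.100 per kb, and 4 of the matches were shared by both motifs. No test was made of these densities, and a match in letters is a description, not a site of action.

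A few matches are shown for writers and erasers that held them, with the motif in capitals, to let the shared stretch be seen.
Dnmt3a miR-29, chr12:3908572-3908578: atcccgacttcataaTGGTGCTt
Dnmt3b miR-29, chr2:153686627-153686633: tagagtagcccggcaTGGTGCTc
Tet1 miR-29, chr10:62812210-62812216: tagaaccatagagtcTGGTGCTt
Tet2 miR-29, chr3:133466174-133466180: ggtgttaacattaaaTGGTGCTa
Tdg miR-29, chr10:82649677-82649683: ctcatgcattttccaTGGTGCTa
Tet3 miR-290 to miR-295, chr6:83367844-83367850: ctcctcttcttccccAGCACTTt
Tet3 miR-17, chr6:83367843-83367849: tcctcttcttccccaGCACTTTg
Dnmt3a miR-17, chr12:3909549-3909555: ctgggccatgtgctcGCACTTTg

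The coordinates are those of the motif on GRCm38, on the plus strand for Dnmt3a, Dnmt3b and Tdg and on the minus strand for Tet1, Tet2 and Tet3. The 2 Tet3 lines overlap by 6 bases of motif. In 8 of the 29 miR-29 matches, among them those shown for Tet2 and Tdg, the next base was an A, the base that lies opposite the first base of the miRNA. Seed matches were sought in 3′ UTRs only, and the 5 degradome sites were in coding exons or in an intron. The search could therefore not place any of these sites at a match.

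**Figure D4:**
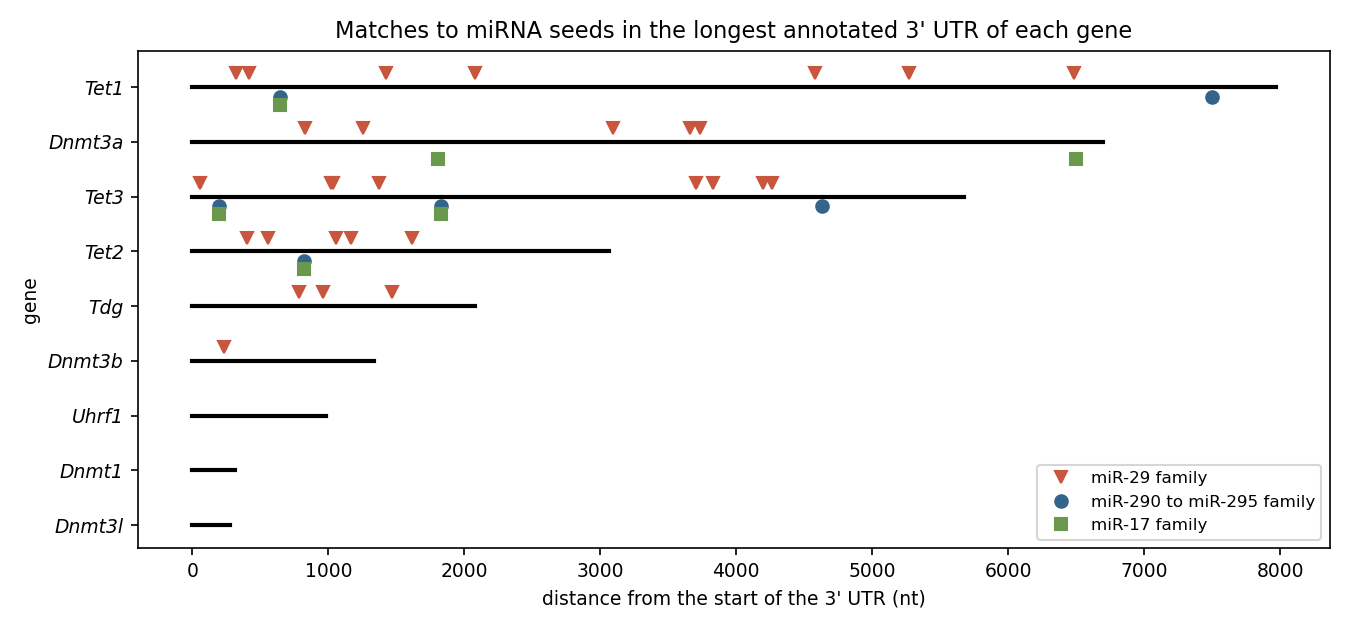
Positions of seed matches along the longest annotated 3′ UTR of the 9 genes, in nt from its start, with black lines drawn to the length of each UTR and symbols for the 3 families. Tet3, Tet1, Tet2, Dnmt3a and Tdg carry 3 or more miR-29 matches, and Uhrf1, Dnmt1 and Dnmt3l carry none of any family.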

How the data were processed

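For Degradome-seq, the authors used Trimmomatic 0.38.0 for trimming and STAR for alignment (GRCm38), picked pile-up sites of read starts with a classifier applied to both control libraries and deposited RPM, scaled by mapped reads, per library. For RNA-seq, the authors deposited the mean log2 CPM over 6 libraries, from edgeR 3.26.1, and the table holds no depth per library. Both kinds of table also hold the authors' log2 fold changes, p-values and FDR, and the RNA-seq table an F statistic; these were not used.

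In every degradome library, 100% of the RPM were multiples of the value of 1 read, at a tolerance of 0.1. Mapped reads were computed from this value. A recovery test within this check failed in 3 libraries, so no count test was run. limma 3.58.1 (R 4.3.3) was fitted on log2(RPM + 0.1), with a mean-variance trend, over all sites of each table. Floors cover counting error only. In simulated data, limma recovered 99.5% of 200 sites made 16-fold lower in the Drosha table (3919 sites) and 100% in the Dicer table (4666 sites), with 0 false calls. The simulated noise was independent between libraries, with no shift shared by same-numbered ones, and the changed sites had a mean over 0.5 RPM. The recovery thus does not give the power for smaller changes or in the real libraries. Annotation was GENCODE vM21. The text names the 9 genes, every site inside them, and some genes of fixed lists, not all of which are reported here by name. The members and lists were chosen with earlier results of these data known. Alternatives were another pseudocount, centring, a filter at a mean of 0.5 RPM, a fold threshold of 1, a replicate block, other transcript lengths and leaving out each library. Chosen after seeing the data were 2 kb flanks, sites that were not linker-like only, and all alternatives of the interaction.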

Additional observations from a re-analysis of the deposited data

How the results depend on the processing

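Both Dnmt1 sites and the Uhrf1 site kept their direction and their call in the Drosha comparison under each alternative that held them, except that Uhrf1 lost its fold call with 1 RPM added (−0.88, limma FDR 0.00275). With 1 RPM added, Dnmt1 exon 23 stayed called at −1.85 in place of −3.62, and Dnmt1 exon 13 at −2.30 in place of −2.40. Leaving out each library in turn gave log2 fold changes of −2.77 to −2.03 (Dnmt1 exon 13), −4.03 to −3.21 (Dnmt1 exon 23), −2.37 to −1.97 (Uhrf1) and −1.05 to −0.81 (Dnmt3b). Over the alternatives the limma FDR was 2.04e-06 to 0.024, 8.37e-08 to 0.0234, 0.00275 to 0.0352 and 0.0564 to 0.5. Among sites that were not linker-like, 0 sites of the 9 genes were called, since only the Dnmt3b site was left. In the Dicer comparison 3 values changed sign, Dnmt1 (−0.22) and Dnmt3b (−0.37) without the Dicer-deficient replicate 1, and Dnmt3b (−0.10) without the Dicer control replicate 2. The cause was not tested. Leaving out each library in turn gave −0.22 to 1.91 (Dnmt1), −0.37 to 0.59 (Dnmt3b) and 0.23 to 0.86 (Tet1). In the interaction, 1 site (Dnmt1 exon 13) passed with median-centred libraries and with the replicate block (limma FDR 3.68e-11), and 0 to 1 when each library was left out, with an FDR of up to 0.215. The shared replicate numbers do not establish pairing. Same-numbered libraries correlated at 0.13 (Drosha) and 0.53 (Dicer), and the replicate block left 3 of 4 sites called in the Drosha comparison and 0 of 3 in the Dicer comparison. Over all sites it called 67 decreased and 119 increased with Dicer loss, in place of 0 and 0. The Drosha calls over all sites were 1473 decreased and 375 increased. They became 548 decreased with 1 RPM added, 871 decreased and 602 increased after centring, 907 decreased without the Drosha control replicate 1 and 451 decreased among the 2664 sites that were not linker-like. The median level of the 9 genes was 3.51 log2 CPM per kb with the longest transcript and 5.44 with the median transcript length. The 2 libraries a group and the values of 4 to 6 reads in Drosha-deficient cells at Dnmt1 exon 23 and Uhrf1 limit the precision.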
